A study of Mus musculus with 2 samples.

Results

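Cxcl9, Cxcl10 and Cxcr3, a pair of chemokines and the receptor they share, were followed through single cell RNA-seq of dystrophic mouse muscle. They are 3 of the 24984 gene symbols in the deposited counts and were found by symbol. They were chosen by measured values, with earlier results of these data known: their UMIs summed per cell class and library, and the share of those UMIs that lay in few cells. Every level and ratio of these genes is therefore a description. A UMI is a tag that marks 1 captured RNA molecule. Hind limb muscles of mdx mice, which lack dystrophin, were digested, and live mononuclear cells were sorted without a lineage gate and run on the 10x Chromium platform. The Ctrl library came from mice of the genotype Pax7 CreERT2/R26YFP; Yy1 +/+; mdx, and the dKO library from mice of the genotype Pax7 CreERT2/R26YFP; Yy1 f/f; mdx. Both groups carried the Cre allele and the mdx mutation and were injected with tamoxifen on 5 consecutive days from 1.5 months of age, and muscles were taken 1 month later. Pax7 drives the Cre in muscle stem cells (MuSCs), so Yy1, which encodes a DNA-binding regulator of transcription, was left in place in the other cells of dKO muscle. The question was how the neighbouring cells of dystrophic muscle differ when MuSCs lose Yy1. Each library pooled the cells of 3 mice and there was 1 library per group, so differences between the libraries have no replicate check and no test was made.

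CXCL9 and CXCL10 are small secreted proteins that draw activated T cells and natural killer cells through CXCR3, a G protein-coupled receptor. Interferon-γ induces both, in part through the transcription factor IRF1, and Cxcl10 is also induced by type I interferon and NF-κB. In inflamed tissue the ligands are typically made by macrophages, dendritic cells, endothelial cells and fibroblasts, while the receptor is typical of effector T cells, natural killer cells and some dendritic cells. Fibro-adipogenic progenitors (FAPs), the Pdgfra-positive fibroblasts of muscle, and monocytes and macrophages (MO/MPs) are the most frequent cells of these libraries.

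The ligand genes lie side by side on the minus strand of chromosome 5 (GENCODE M21, GRCm38, the build mm10 of the submitters' processing notes). Cxcl9 spans chr5:92321347-92328079 in 4 exons and Cxcl10 spans chr5:92346638-92348889 in 4 exons, with 18.6 kb between them. Cxcl11, the third interferon-induced ligand of the cluster, starts 10.7 kb beyond Cxcl10 and is annotated there as a polymorphic pseudogene. Cxcr3 spans chrX:101731535-101734269 on the minus strand in 2 exons. The 250 bases upstream of the RefSeq start (GRCm38.p6) are shown for both ligands, because they differed in how they varied between the libraries. They lie at chr5:92328080-92328329 for Cxcl9 and at chr5:92348890-92349139 for Cxcl10, and are written 5′ to 3′ on the minus strand. Capitals mark matches on either strand to the core of the interferon-stimulated response element (ISRE, GAAANNGAAA), to the gamma-activated sequence (GAS, TTCNNNGAA) or to the NF-κB consensus.
Cxcl9: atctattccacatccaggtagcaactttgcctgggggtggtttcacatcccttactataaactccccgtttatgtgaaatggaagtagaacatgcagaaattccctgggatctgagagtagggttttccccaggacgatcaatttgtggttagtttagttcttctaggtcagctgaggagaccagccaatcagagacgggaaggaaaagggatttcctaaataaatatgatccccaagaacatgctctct
Cxcl10: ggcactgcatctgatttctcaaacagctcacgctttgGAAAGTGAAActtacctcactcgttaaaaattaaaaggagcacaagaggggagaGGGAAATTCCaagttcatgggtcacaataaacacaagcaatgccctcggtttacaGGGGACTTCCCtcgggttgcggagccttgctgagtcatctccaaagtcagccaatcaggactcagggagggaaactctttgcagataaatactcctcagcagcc
Cxcl10 had an ISRE core from 213 to 204 bases upstream of the start, an NF-κB match from 159 to 150 bases upstream and overlapping NF-κB matches that end 94 bases upstream. The Cxcl9 window held none of the 3 motifs, and neither did the Cxcr3 window. Over the 32851 promoter windows of the RefSeq table, 2.98% held the ISRE core, 7.02% the GAS and 7.25% the NF-κB consensus. A match to letters is not a bound site, and a window without a match says only that these letters are not in it.

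After cells with fewer than 500 genes and the 7.5% of cells with the highest doublet scores were left out, 4010 Ctrl and 3079 dKO cells remained, with medians of 7807 and 7852 UMIs per cell. The libraries shared 6 cell barcodes among them. Cells were clustered with the 3 genes left out, and clusters were named from marker lists, which gave FAP-like, MO/MP-like, endothelial cell (EC)-like and other classes. A pair of clusters with all 12 MO/MP markers enriched stayed unnamed, because a marker of another list (Lyve1 of lymphatic endothelium, Itgax of dendritic cells) and none of these stood among their leading genes. The cluster led by Cd209f and Fcna held 4.29% of Ctrl and 4.90% of dKO cells, and the cluster led by Ear2 and Dcstamp held 2.47% and 3.77%. Levels are given in CPM, the UMIs of a gene scaled to 1000000 UMIs of the class. Yy1 stood at 163 CPM in the 120 MuSC-like cells of Ctrl and at 3.91 CPM in the 30 of dKO, and at 122 and 132 CPM in FAP-like cells. Levels have exact 95% Poisson intervals, ratios are dKO over Ctrl with exact 95% intervals from the split of the UMIs, and shares of cells have exact binomial intervals. All of these cover counting error only and not the spread between mice. Those of levels and ratios also leave out the spread between cells, so they are too narrow where few cells hold the UMIs. Fewer producing cells and fewer UMIs per cell are told apart only where both are given.

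Over all kept cells, Cxcl9 differed most between the libraries, Cxcl10 less, and Cxcr3 had a ratio near 1. Cxcl9 had 1231 UMIs in Ctrl (30.3 CPM) and 3224 in dKO (106 CPM), a ratio of 3.49 (3.27 to 3.73). At least 1 of these UMIs was held by 307 Ctrl cells (7.66%) and 316 dKO cells (10.3%). Cxcl10 had 6672 UMIs in Ctrl (164 CPM, 13.9% of cells) and 7982 in dKO (262 CPM, 19.5% of cells), a ratio of 1.60 (1.54 to 1.65). Cxcr3 had 75 UMIs in Ctrl (1.84 CPM, 1.40% of cells) and 59 in dKO (1.93 CPM, 1.27% of cells), a ratio of 1.05 (0.733 to 1.5).

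Few cells held most of the ligand UMIs. In Ctrl, 50% of the Cxcl9 UMIs lay in 30 cells and 50% of the Cxcl10 UMIs in 31 cells. In dKO the same share lay in 18 cells for Cxcl9 and in 47 cells for Cxcl10, fewer than in Ctrl for Cxcl9 and more for Cxcl10. Cells with at least 10 Cxcl9 UMIs numbered 29 in Ctrl and 62 in dKO. With the 10 richest cells of each library left out, Cxcl9 stood at 21.3 CPM in Ctrl and 64.3 CPM in dKO, a ratio of 3.02 (2.79 to 3.28). The same step left Cxcl10 at 120.4 and 206 CPM, a ratio of 1.71 (1.65 to 1.78). For Cxcr3, 1 dKO cell held 12 of the 59 UMIs, and without the richest cell of each library the ratio was 0.896 (0.606 to 1.32).

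**Figure D1:**
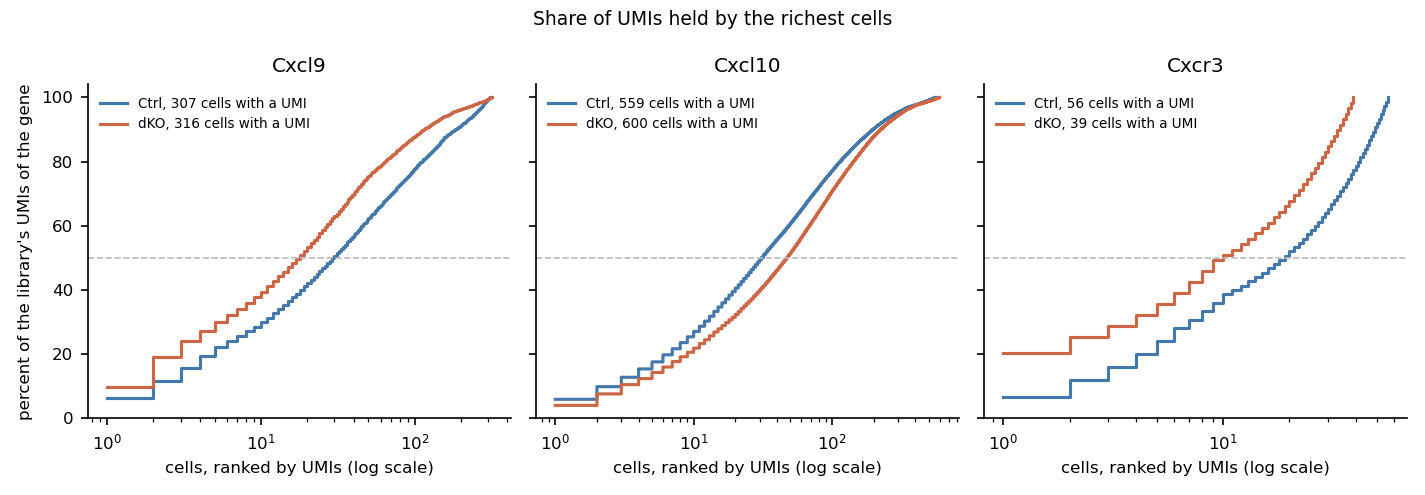
Cumulative percent of each gene's UMIs (vertical axis) over the cells with at least 1 UMI, ranked by their UMIs (horizontal log axis), in the Ctrl and dKO libraries. The dashed line at 50% is crossed at 30 cells in Ctrl and 18 in dKO for Cxcl9, and at 31 and 47 cells for Cxcl10.

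Most Cxcl9 UMIs of Ctrl lay in FAP-like and EC-like cells, and in dKO the level was higher in both and in MO/MP-like and dendritic cell-like cells, but lower in tenocyte-like and cycling MO/MP-like cells. Of all Cxcl9 UMIs, 73.4% in Ctrl and 73.2% in dKO lay in FAP-like cells. In FAP-like cells the level was 62.2 CPM in Ctrl (904 UMIs, 1080 cells) and 155 CPM in dKO (2361 UMIs, 1141 cells), a ratio of 2.50 (2.32 to 2.70). Without the richest cell of each library the level was 56.9 CPM in Ctrl and 135 CPM in dKO. The richest FAP-like cells held 78, 64 and 50 Cxcl9 UMIs in Ctrl and 312, 300 and 164 in dKO. In EC-like cells the level was 57.2 CPM in Ctrl (155 UMIs, 470 cells) and 165 CPM in dKO (144 UMIs, 180 cells), a ratio of 2.89 (2.28 to 3.65). Here the ratio rested on few cells: without the 10 richest of each library it was 0.852 (0.449 to 1.52), a step that takes a larger share of the smaller dKO class. Cycling FAP-like cells had 17.9 CPM in Ctrl (22 UMIs) and 90.0 CPM in dKO (107 UMIs), a ratio of 5.04 (3.16 to 8.37).

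The largest ratio of Cxcl9 among classes with UMIs in both libraries and an interval above 1 was in MO/MP-like cells. They stood at 5.87 CPM in Ctrl (64 UMIs, 1151 cells) and 64.5 CPM in dKO (427 UMIs, 857 cells), a ratio of 11.0 (8.42 to 14.5). Only a few cells carried it, since 23 Ctrl and 30 dKO cells held any Cxcl9, and the richest 4 held 17, 10, 5 and 4 UMIs in Ctrl and 105, 88, 63 and 58 in dKO. Without the 10 richest cells of each library the levels were 1.2 and 4.91 CPM, a ratio of 4.08 (2.08 to 8.47). When each cell was thinned to 2000 UMIs, 9 of 1044 Ctrl cells (0.862%) and 14 of 783 dKO cells (1.79%) had a Cxcl9 UMI. The share of all MO/MP-like cells with a UMI was 2.0% in Ctrl and 3.5% in dKO, so the share differed less than the level did. Thinned B cell-like cells had 0 of 98 and 0 of 71, with exact upper limits of 3.69% and 5.06%, so the thinned MO/MP-like shares alone were not told apart from background. The cluster led by Cd209f and Fcna had 5 UMIs in Ctrl (6.37 CPM) and 46 in dKO (64.1 CPM), of which 29 lay in 1 cell. The cluster led by Ear2 and Dcstamp had no Cxcl9 UMI in Ctrl and 10 in dKO, at least 3.42-fold higher against a floor of 3 UMIs in Ctrl, with an exact lower limit of the ratio of 2.30. Dendritic cell-like cells had 23.1 CPM in Ctrl (23 UMIs, 108 cells) and 134 CPM in dKO (122 UMIs, 102 cells), a ratio of 5.81 (3.70 to 9.51). Their 2 richest dKO cells held 58 and 39 of these UMIs.

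Few Cxcl9 UMIs were found in lymphocytes, neutrophils and MuSC-like cells. B cell-like cells held 0 UMIs in 143 Ctrl and 87 dKO cells, with medians of 2328 and 2556 UMIs per cell, which allows up to 2.10% and 3.45% of cells with a UMI by a floor of 3 cells, and does not limit the cells that express the gene at this depth. T cell-like cells held 0 and 1 UMIs, neutrophil-like cells 0 and 1, and MuSC-like cells 1 and 2. The 37 neutrophil-like cells of dKO had a median of 1680 UMIs, so their 1 UMI gave 9.86 CPM (0.25 to 54.9), which does not show absence. Thinned to 2000 UMIs, B cell-like cells had exact upper limits of 3.69% and 5.06%, below the shares of FAP-like cells with Cxcl9, which were 7.28% in Ctrl and 8.83% in dKO. Unthinned, 17.4% and 20.2% of FAP-like cells had a UMI, at medians of 11748 and 11872 UMIs per cell. Tenocyte-like cells, the tendon fibroblasts, had 13 UMIs in Ctrl and 0 in dKO, at least 2.74-fold lower against the same floor in dKO, with an exact upper limit of the ratio of 0.52. Smooth muscle/pericyte-like cells had 17 UMIs in Ctrl (17.1 CPM) and 2 in dKO (9.0 CPM). Cycling MO/MP-like cells had 17 UMIs in Ctrl and 1 in dKO (9.40 and 1.33 CPM), of which the richest Ctrl cells held 8 and 5.

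**Figure D2:**
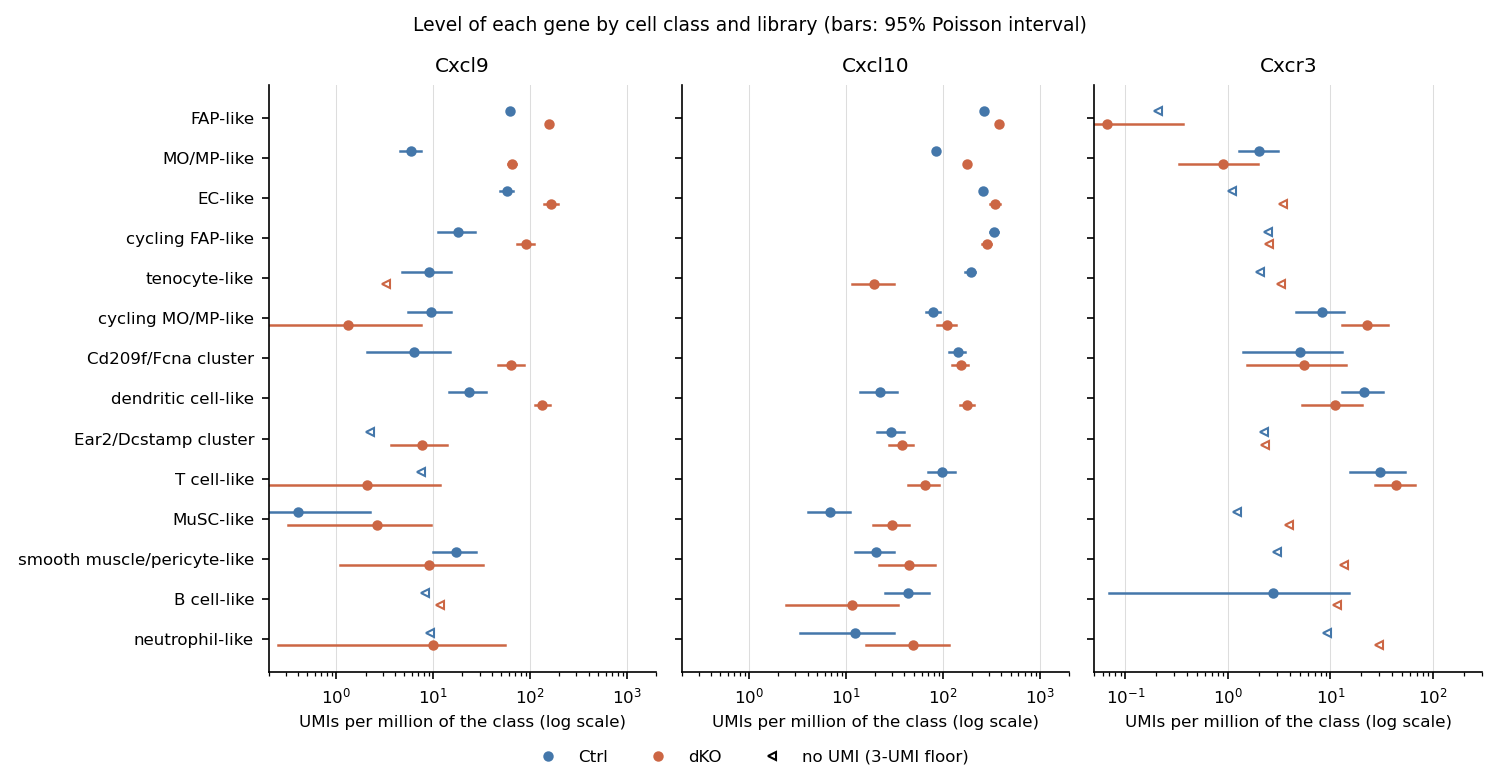
Level of Cxcl9, Cxcl10 and Cxcr3 in CPM of the class (horizontal log axes) for each class with at least 20 cells in both libraries (vertical axis). Points are the Ctrl and dKO libraries, bars are exact 95% Poisson intervals cut at the left edge, and open triangles mark classes with no UMI at the level that 3 UMIs would give. Cxcl9 in MO/MP-like cells lies at 5.87 CPM in Ctrl and 64.5 CPM in dKO, and Cxcr3 is highest in T cell-like cells at 30.2 and 43.7 CPM.

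In FAP-like, MO/MP-like and EC-like cells the Cxcl10 ratios were nearer to 1 than those of Cxcl9, and in dendritic cell-like cells they were not. FAP-like cells accounted for 58.1% (Ctrl) and 71.1% (dKO) of the Cxcl10 UMIs, at 266 CPM (3874 UMIs) and 374 CPM (5676 UMIs), a ratio of 1.40 (1.35 to 1.46). The richest FAP-like cells held 397 and 174 UMIs in Ctrl and 323 and 285 in dKO. Without the 10 richest of each library the ratio in these cells was 1.60 (1.52 to 1.69). In MO/MP-like cells the level was 85.1 CPM in Ctrl (927 UMIs in 156 of 1151 cells) and 176 CPM in dKO (1168 UMIs in 150 of 857 cells), a ratio of 2.07 (1.90 to 2.26). Without the 10 richest cells of each library 513 of the 927 Ctrl and 678 of the 1168 dKO UMIs were left. The ratio was then 2.18 (1.94 to 2.45), so it did not rest on these cells alone. The Cxcl9 ratio of the same class went from 11.0 to 4.08 at this step. Thinned to 2000 UMIs, 7.09% of Ctrl and 11.4% of dKO MO/MP-like cells had a Cxcl10 UMI, and 11.2% and 16.2% of FAP-like cells. B cell-like cells, thinned in the same way, had a Cxcl10 UMI in 2 of 98 Ctrl cells (2.04%) and 3 of 71 dKO cells (4.23%). In dendritic cell-like cells Cxcl10 stood at 22.1 CPM in Ctrl (22 UMIs) and 177 CPM in dKO (161 UMIs), a ratio of 8.02 (5.12 to 13.2), from 9 cells in each library. The dKO cells that held most had 46, 36, 31 and 29 UMIs, against 10 and 5 in the Ctrl cells that held most. In the cluster led by Cd209f and Fcna there were 111 Cxcl10 UMIs in Ctrl (141 CPM) and 109 in dKO (152 CPM), a ratio of 1.07 (0.818 to 1.41), while its Cxcl9 ratio was 10.1 (4.02 to 32.5). In the cluster led by Ear2 and Dcstamp Cxcl10 stood at 29.0 and 37.4 CPM, a ratio of 1.29 (0.829 to 2.02). Smooth muscle/pericyte-like cells had 20 and 10 Cxcl10 UMIs, a ratio of 2.23 (0.933 to 4.99), and neutrophil-like cells had 4 and 5.

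In several smaller classes 1 cell held much of the Cxcl10. Tenocyte-like cells had 278 UMIs in Ctrl (192 CPM) and 18 in dKO (19.6 CPM), but 1 Ctrl cell held 262 of them and 1 dKO cell held 16. Without these cells 16 and 2 UMIs were left, and the ratio went from 0.103 (0.0599 to 0.165) to 0.199 (0.0222 to 0.847). In T cell-like cells 1 Ctrl cell held 34 of 39 UMIs, and the ratio of 0.657 (0.396 to 1.08) became 3.94 (1.47 to 13.2) without the richest cell of each library. Cycling FAP-like cells had 335 CPM in Ctrl (412 UMIs) and 282 CPM in dKO (335 UMIs), a ratio of 0.842 (0.727 to 0.975), and 1.21 (1.01 to 1.46) without the richest cell of each library. Cycling MO/MP-like cells turned the other way, from 1.39 (1.05 to 1.84) to 0.928 (0.583 to 1.44). MuSC-like cells, in which Yy1 was deleted, had 17 Cxcl10 UMIs in Ctrl (6.88 CPM) and 23 in dKO (30 CPM). The ratio was 4.36 (2.23 to 8.69), 11 of 120 Ctrl and 6 of 30 dKO cells held a UMI, and the richest dKO cells held 10, 5 and 4. Thinned to 2000 UMIs, 1 of 116 Ctrl (0.862%) and 1 of 30 dKO cells (3.33%) had a Cxcl10 UMI, a depth at which few UMIs are left. B cell-like cells of dKO held 3 Cxcl10 UMIs in all (11.6 CPM), 1 in each of 3 cells.

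**Figure D3:**
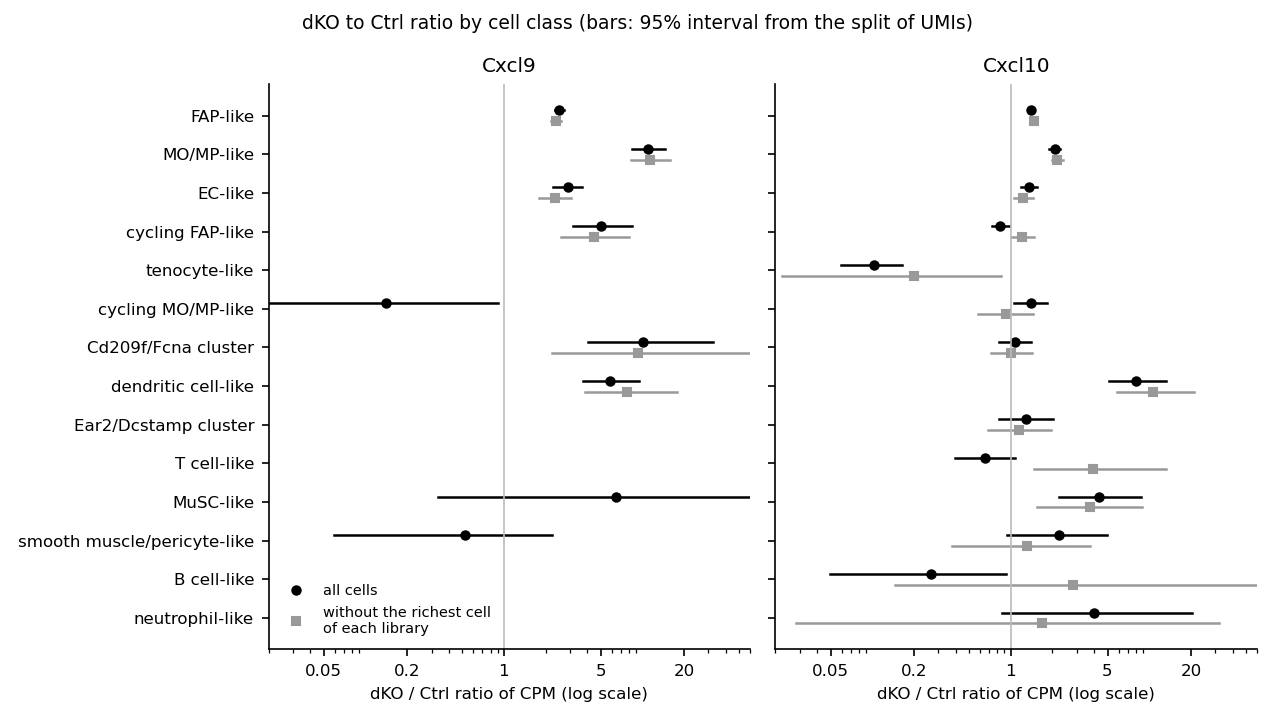
Ratio of dKO to Ctrl levels of Cxcl9 and Cxcl10 (horizontal log axes) in each class with UMIs in both libraries (vertical axis), with all cells (black circles) and without the richest cell of each library (grey squares). Bars are exact 95% intervals from the split of UMIs, cut at the axis edges. The Cxcl9 ratio is 11.0 in MO/MP-like cells and 11.3 without the richest cells, while that of Cxcl10 in cycling FAP-like cells goes from 0.842 to 1.21.

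Within the larger classes the ligands differed between clusters. Among FAP-like clusters, Cxcl9 was highest in the cluster led by Col6a6 and Sfrp1 in Ctrl (88.8 CPM, dKO 183 CPM) and in the cluster led by Cxcl5, a neutrophil-attracting chemokine, in dKO (Ctrl 67.2 CPM, dKO 210.0 CPM). The cluster led by Efhd1 and Sbsn, with Pi16 and Dpp4 also among its leading genes, had the lowest levels, 7.32 CPM in Ctrl and 23.5 CPM in dKO, where 1 cell held 24 of the 40 UMIs. The ratio of Cxcl9 lay above 1 in each of the 4 FAP-like clusters, from 2.06 (1.84 to 2.32) to 3.92 (2.90 to 5.39). Cxcl10 differed most in the Cxcl5-led cluster, at 265 CPM in Ctrl and 474 CPM in dKO, a ratio of 1.79 (1.68 to 1.91). In the cluster led by C7 and Inmt, where Cxcl10 stood at 377 and 459 CPM, 1 Ctrl cell held 397 of the 929 UMIs. Without the richest cell of each library that cluster stood at 218 and 414 CPM and the Cxcl5-led cluster at 235 and 423 CPM, so the larger ratio was then in the cluster led by C7. Cxcl10 stood at 135 and 132 CPM in the cluster led by Efhd1 and Sbsn. Among MO/MP-like clusters, Cxcl9 was highest in the cluster led by Apoe and Ms4a7, at 10.0 CPM in Ctrl and 142 CPM in dKO, a ratio of 14.1 (10.1 to 20.2). In that cluster 16 of 495 Ctrl cells and 20 of 317 dKO cells held a Cxcl9 UMI, and Cxcl10 stood at 157 and 345 CPM. In the cluster led by Spp1, a matrix protein gene of lipid-handling macrophages, 1 dKO cell held 88 of the 103 Cxcl9 UMIs. The cluster led by Slpi and Chil3, with Ly6c2 of inflammatory monocytes among its leading genes, had 6 Cxcl9 UMIs in Ctrl and 2 in dKO, and Cxcl10 at 73.0 and 76.2 CPM.

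Among the clusters of these 3 classes, the highest Cxcl10 level was in the EC-like cluster led by Selp and Sele, the selectins of activated venous endothelium. It stood at 743 CPM in Ctrl (595 UMIs, 109 cells) and 634 CPM in dKO (219 UMIs, 50 cells), a ratio of 0.853 (0.727 to 0.997). Its Cxcl9 level was 126 CPM in Ctrl and 356 CPM in dKO, a ratio of 2.82 (2.15 to 3.71). The cluster led by Gpihbp1, the capillary lipase anchor, went the other way for Cxcl10, with 59.8 CPM in Ctrl (96 UMIs) and 228 CPM in dKO (80 UMIs), a ratio of 3.81 (2.79 to 5.18). The arterial cluster led by Cytl1 and Gkn3 had 4 and 3 Cxcl10 UMIs. The EC-like class as a whole, at 256 and 346 CPM, joined clusters with opposite differences, and its ratio of 1.35 (1.18 to 1.55) was 0.805 (0.582 to 1.10) without the 10 richest cells of each library.

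**Figure D4:**
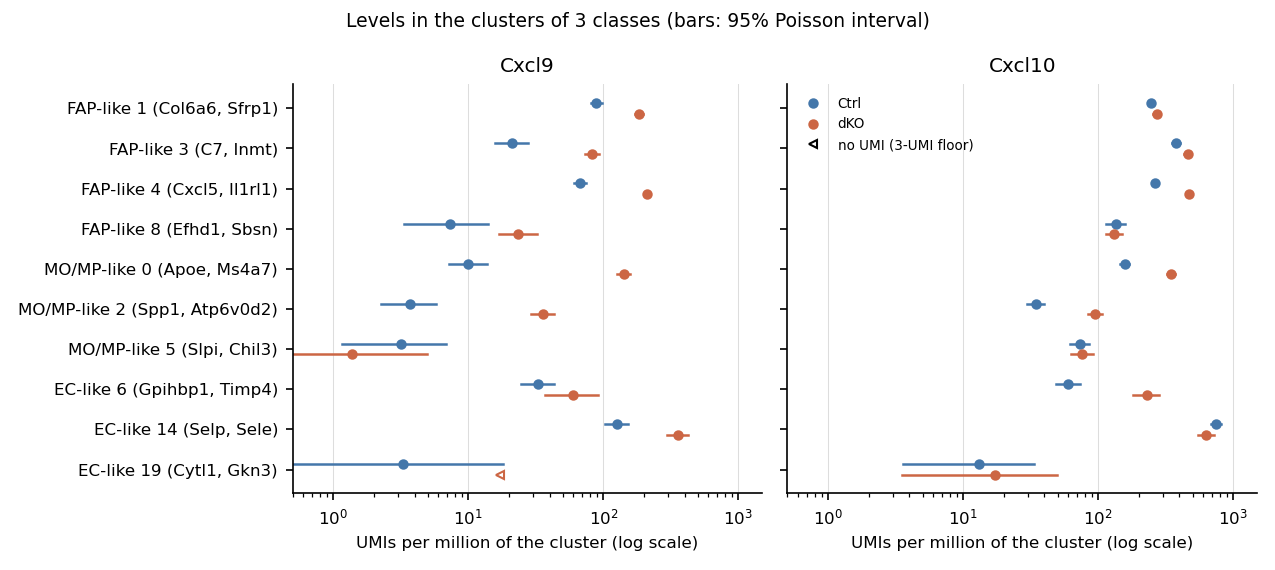
Level of Cxcl9 and Cxcl10 in CPM of the cluster (horizontal log axes) in the clusters of the FAP-like, MO/MP-like and EC-like classes, each named with its 2 leading genes (vertical axis). Points are the Ctrl and dKO libraries with exact 95% Poisson intervals, and the open triangle marks a cluster with no UMI. Cxcl10 is highest in the Selp-led EC-like cluster, at 743 CPM in Ctrl and 634 CPM in dKO.

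The ligands were found together in part of the cells. Among FAP-like cells with a Cxcl9 UMI, 33.5% in Ctrl (63 of 188) and 46.3% in dKO (107 of 231) also held Cxcl10, against 17.7% and 21.9% of the cells without Cxcl9. These shares move with depth, and thinned to 2000 UMIs they were 23.0% and 34.4%, against 10.3% and 14.4%. Among MO/MP-like cells, 9 of 23 Ctrl cells and 17 of 30 dKO cells with Cxcl9 also held Cxcl10. The reverse overlap was smaller, since 5.77% of Ctrl and 11.3% of dKO MO/MP-like cells with Cxcl10 held Cxcl9. Of the EC-like cells with Cxcl9, 26 of 58 (Ctrl) and 14 of 22 (dKO) also held Cxcl10. Of the dendritic cell-like ones it was 1 of 7 (Ctrl) and 2 of 10 (dKO), and in the cluster led by Cd209f and Fcna 1 of 3 and 1 of 5.

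Cells rich in a ligand also stood higher in several interferon-inducible genes, in both libraries. MO/MP-like cells with at least 5 Cxcl10 UMIs (50 in Ctrl, 51 in dKO) were set against those with none (995 and 707). Iigp1, an interferon-inducible GTPase, stood at 139 against 5.34 CPM in Ctrl and at 126 against 17.4 CPM in dKO. Rsad2, the antiviral viperin, stood at 1471 against 122 CPM in Ctrl and at 1696 against 297 CPM in dKO. In dKO, Rsad2, Iigp1 and Gbp5 were also higher in the MO/MP-like cells without Cxcl10, where Gbp5 stood at 5.23 CPM in Ctrl and 14.8 CPM in dKO. The 9 dKO MO/MP-like cells with at least 5 Cxcl9 UMIs stood apart from the 827 with none in Gbp2, a guanylate-binding protein, at 894 against 49.7 CPM, and in Gbp5 at 219 against 21.7 CPM. Rsad2 did not follow in those 9 cells, at 397 against 445 CPM, a ratio of 0.893 (0.637 to 1.22). Ifit3, another interferon-inducible gene, was higher in them, with a ratio of 1.99 (1.35 to 2.82). In Ctrl only 3 MO/MP-like cells reached 5 Cxcl9 UMIs. There Rsad2 stood at 701 against 199 CPM, a ratio of 3.52 (2.23 to 5.30).

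FAP-like cells were compared in the same way. Those with at least 5 Cxcl9 UMIs (44 in Ctrl, 80 in dKO) had Iigp1 at 181 against 37.0 CPM in Ctrl and at 428 against 125 CPM in dKO. Gbp2 stood at 84.0 against 38.5 CPM in Ctrl and at 162 against 48.7 CPM in dKO. Rsad2 stood at 23.4 against 12.7 CPM in Ctrl and at 132 against 36.9 CPM in dKO. Ifit3 stood at 88.2 against 17.2 CPM in Ctrl and at 277 against 58.9 CPM in dKO. Gbp5 was not higher in the Cxcl9-rich cells of Ctrl, at 4.25 against 7.56 CPM (4 and 84 UMIs), and stood at 37.3 against 12.9 CPM in dKO. Irf1 stood at 161 against 175 CPM in Ctrl, a ratio of 0.915 (0.770 to 1.08), and at 219 against 185 CPM in dKO, a ratio of 1.19 (1.05 to 1.33). It stood further apart in the cells with at least 5 Cxcl10 UMIs, at 308 against 150.4 CPM in Ctrl and at 323 against 143 CPM in dKO. Il6, a cytokine gene of activated FAPs, was higher in cells rich in Cxcl10 (251 against 154 CPM in Ctrl, 252 against 197 CPM in dKO) and lower in those rich in Cxcl9 (137 against 174 CPM in Ctrl, 169.9 against 209 CPM in dKO). Ligand-rich cells were also sequenced more deeply, with medians of 20590.5 and 17423 UMIs in the FAP-like cells rich in Cxcl9 against 10876 and 11008 in those with none. Each class also joins clusters that differed in the ligands, so ligand-rich cells and those with none may differ in cluster. The parts of depth and of cluster in these differences were not tested.

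**Figure D5:**
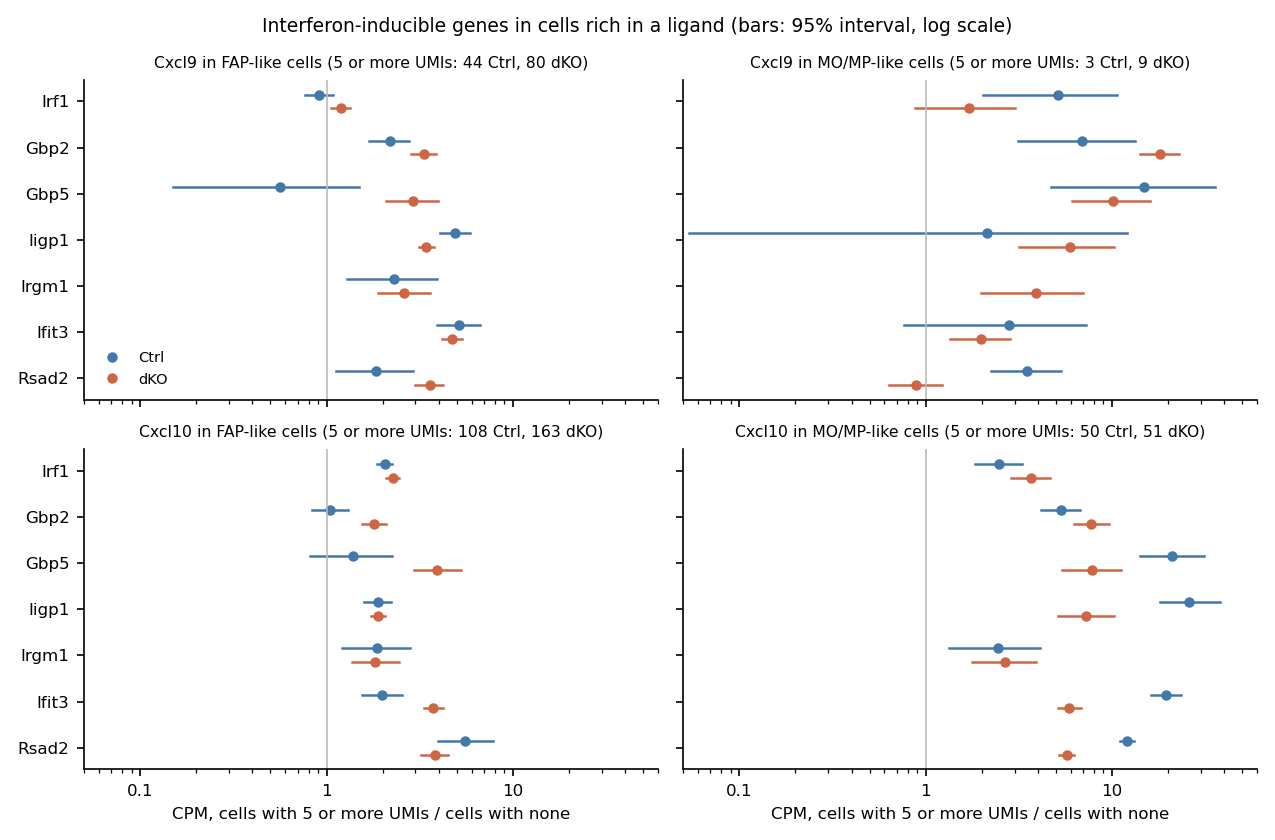
Ratio of the level of 7 interferon-inducible genes between cells with at least 5 UMIs of a ligand and cells with none (horizontal log axes), in FAP-like cells (left) and MO/MP-like cells (right), for Cxcl9 (top) and Cxcl10 (bottom). Points are the Ctrl and dKO libraries, bars are exact 95% intervals from the split of UMIs, and a gene with no UMI in the ligand-rich cells has no point. In Cxcl10-rich MO/MP-like cells Rsad2 has a ratio of 12.1 in Ctrl and 5.70 in dKO. In Cxcl9-rich MO/MP-like cells its ratio is 3.52 in Ctrl and 0.893 in dKO.

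Cxcr3 was rare, and the FAP-like and EC-like cells that held most ligand UMIs had almost none of it. Its highest level was in T cell-like cells, with 12 UMIs in 9 of 115 Ctrl cells (30.2 CPM) and 21 UMIs in 16 of 136 dKO cells (43.7 CPM). The ratio of 1.45 had an interval from 0.68 to 3.23, which covers counting error only and spans 1. Shares of T cell-like cells with a UMI were 7.83% and 11.8%, and 5.49% and 7.21% after thinning to 2000 UMIs. FAP-like cells, which should lack the receptor, held 0 UMIs in 1080 Ctrl cells and 1 in 1141 dKO cells at higher depth, so the T cell-like share was above background. Of the Cxcr3-positive T cell-like cells, 7 of 9 in Ctrl and 13 of 16 in dKO had a UMI of Cd3d, Cd3e or Cd3g, the chains of the T cell receptor complex. These shares, 77.8% and 81.2%, were close to the 74.5% and 80.8% of T cell-like cells without Cxcr3. Natural killer genes Klrb1c or Ncr1 were found in 2 of 9 and 4 of 16 positive cells, against 10.4% and 10% of the others. Cd8a was found in 2 and 5 of them, against 15.1% and 10.8%. Cd4 was found in 1 and 5 of them, against 32.1% and 19.2%, and Ccr7 in 0 and 2, against 26.4% and 9.17%. Foxp3 of regulatory T cells was found in 1 and 2 of them, against 11.3% and 12.5%.

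Dendritic cell-like cells had 21 Cxcr3 UMIs in 12 of 108 Ctrl cells (21.1 CPM) and 10 UMIs in 9 of 102 dKO cells (11.0 CPM). The ratio was 0.522 (0.219 to 1.16). These cells were mostly of the cross-presenting kind by their genes, since 91.7% in Ctrl and 66.7% in dKO had a UMI of Xcr1 or Clec9a, against 36.5% and 26.9% of the dendritic cell-like cells without Cxcr3. A UMI of Cd209a was found in 0 of them, against 43.8% and 38.7% of the others. Siglech, which marks plasmacytoid dendritic cells, was found in 1 of the 12 Ctrl cells and in 0 of the 9 dKO cells. Cycling MO/MP-like cells had 15 UMIs in Ctrl (8.30 CPM) and 17 in dKO (22.5 CPM), of which 1 cell held 12. Cycling MO/MP-like cells thus had the second highest dKO level after T cell-like cells, and 6.92 CPM against 8.92 CPM in dendritic cell-like cells without the richest dKO cell of each class. In dKO, 3 of the 4 positive cycling MO/MP-like cells had a UMI of Xcr1 or Clec9a. Counted separately, 3 of the 4 had a UMI of Flt3. These genes go against the name of the class. A Cd3 gene had a UMI in 1 of the 4. In Ctrl, 1 of the 9 positive cells had a UMI of Xcr1 or Clec9a, 0 of Flt3 and 2 of Klrb1c or Ncr1. MO/MP-like cells held 22 UMIs in 21 of 1151 Ctrl cells and 6 in 6 of 857 dKO cells. Thinned to 2000 UMIs these shares were 0.287% and 0.255%, against 0 of 1017 and 0 of 1087 FAP-like cells and 1 of 98 and 0 of 71 B cell-like cells. There were 4 Cxcr3 UMIs in each library in the cluster led by Cd209f and Fcna, and B cell-like cells held 1 in Ctrl and 0 in dKO. No Cxcr3 UMI was found in EC-like, tenocyte-like, MuSC-like, smooth muscle/pericyte-like, neutrophil-like or cycling FAP-like cells, nor in the cluster led by Ear2 and Dcstamp. For the 470 Ctrl and 180 dKO EC-like cells the floor of 3 cells allows up to 0.638% and 1.67% with a UMI, which does not limit the cells that express the gene.

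Of the other CXCR3 ligands, Cxcl11 had 30 UMIs in Ctrl and 40 in dKO in FAP-like cells, where 1 cell held 16 and 1 cell held 20. Pf4, a platelet and macrophage chemokine that also binds the receptor, stood at 1822 CPM in Ctrl and 1405 CPM in dKO in MO/MP-like cells, a ratio of 0.771 (0.752 to 0.790), against the direction of Cxcl9 and Cxcl10. Ifng, the inducer, was a gene of T cell-like cells, with 171 UMIs in 20 Ctrl cells (430.4 CPM) and 136 UMIs in 18 dKO cells (283 CPM), a ratio of 0.657 (0.521 to 0.828). Cycling MO/MP-like cells held 18 Ifng UMIs in Ctrl, 16 of them in 1 cell, and 0 in dKO. Over all kept cells the Ifng levels overlapped, with 194 Ctrl UMIs giving 4.77 CPM (4.12 to 5.49) and 144 dKO UMIs giving 4.72 CPM (3.98 to 5.56). FAP-like cells held 2 and 4 Ifng UMIs, and EC-like cells held none. Of all kept cells, the T cell-like class was 2.87% in Ctrl and 4.42% in dKO.

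The pathway was set out in 7 lists of 53 genes in all (ligands, receptors, the interferon-γ signal, type I interferon and NF-κB inputs, genes of CXCR3 lymphocytes, ligand processing, and interferon-γ-inducible neighbours), and a difference was called at 2-fold among genes with at least 100 UMIs in the class. In MO/MP-like cells 7 of 31 measured list genes other than Cxcl9, Cxcl10 and Cxcr3 were at least 2-fold higher in dKO and 0 lower, with a median log2 ratio of 0.64. Over all 8238 genes of these cells 1.49% were at least 2-fold higher and 0.765% lower, with a median of 0.00. The lists were chosen with earlier results of these data known. The list counts in this and the other classes are therefore a description. Both ligands passed that fold in MO/MP-like cells. Nothing is read from this, nor from their passing in the classes below, because the contrast also chose them. The 7 were Irf7, a type I interferon regulator (101 and 405 CPM, ratio 4.03), Ccl5, a lymphocyte and macrophage chemokine (42.2 and 165 CPM, ratio 3.90), Gbp4 (2.66 and 11.2 CPM), Stat2 (29.7 and 77.4 CPM), Irgm1 (13.4 and 32.0 CPM), Gbp5 (11.5 and 26.3 CPM) and Socs1, a feedback inhibitor of the interferon receptors (6.06 and 13.6 CPM). Irf1, an early target of interferon-γ and an activator of both ligand genes, stood at 43.5 and 72.6 CPM, a ratio of 1.67 (1.47 to 1.90).

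In FAP-like cells 3 of 27 measured list genes were at least 2-fold higher in dKO and 0 lower, with a median of 0.30. Over all 10222 genes of the class 0.695% were higher and 0.528% lower, with a median of -0.06. Cxcl9 passed the fold and Cxcl10 did not. The 3 were Irf7 (30.8 and 112 CPM, ratio 3.62), Iigp1 (55.0 and 162 CPM, ratio 2.94) and Gbp5 (7.43 and 15.5 CPM, ratio 2.09). Irf1 stood at 179 and 185 CPM, a ratio of 1.03 (0.98 to 1.09). A link between the levels of Irf1 and Cxcl9 in FAP-like cells was not tested.

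In EC-like cells 0 of 23 measured list genes passed in either direction, against 0.669% higher and 1.48% lower over 4783 genes. Cxcl9 passed there and Cxcl10 did not, and Irf1 stood at 228 and 242 CPM. In cycling FAP-like cells 4 of 12 were higher and 0 lower, against 2.25% and 1.60% of 3563 genes. They were Irf7 (13.8 and 71.5 CPM), Irf1 (46.3 and 179 CPM), the NF-κB inhibitor Nfkbia (582 and 1179 CPM) and the heparan sulphate proteoglycan Sdc4 (200 and 407 CPM), and Cxcl9 also passed. In T cell-like cells 1 of 18 was higher, against 0.504% higher and 0.336% lower over 1191 genes. It was Cxcr6, a receptor of tissue-resident T cells, at 196 and 424 CPM, and Cxcr3 had too few UMIs to be counted there.

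The genes most like each member were sought over 42 points, the clusters of each library with at least 30 cells, by Pearson's r of log2(CPM + 1) among genes with at least 200 UMIs. These points share libraries and depth, so r is a description. The gene nearest to Cxcl9 among 11451 was Cxcl10 (r = 0.776), and Cxcl9 was in turn the gene nearest to Cxcl10. Next to Cxcl9 came Phf11d, Rtn1, Zmynd15, Exoc3l4, Stx2, Cfb and Ext1, with r from 0.668 to 0.623. Next to Cxcl10 came Masp1, Cfb, Igf1, Ifi211, Rspo3, Pnp2 and Cyb5a, with r from 0.714 to 0.622. Cfb, complement factor B, was the gene named for both. Cxcr3 lay nearest to Cd7, Cst7, Klrd1, Cd4, Klrb1b, Gzmb, Pkp3 and Padi2, with r from 0.856 to 0.78. Most are known as genes of lymphocytes, but here Klrd1 and Klrb1b stood among the leading genes of the dendritic cell-like cluster. The r of Cxcr3 was -0.135 with Cxcl9 and -0.00443 with Cxcl10.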

How the data were processed

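The deposited values are raw UMI counts per gene and cell from Cell Ranger, with the build mm10 and no filter on cells after cell calling, per the labels and the study's methods. The methods give version 7.0.0 and the matrix headers 3.0.2. The files list 0 mitochondrial genes, so no mitochondrial filter was applied. The files hold 4527 Ctrl and 3483 dKO barcodes with 45556596 and 33815155 UMIs. Of them, 4335 and 3329 had at least 500 genes. The study's results text gives the same cell numbers after filtering and doublet removal, while a figure legend of the study gives another Ctrl number. From the barcodes with at least 500 genes, the 7.5% with the highest Scrublet score (scanpy 1.11.5, 30 components) were removed in each library, the share in the study's methods. Scrublet's own threshold called 7 and 14 cells, which was taken as a caller that had not worked. Since the cell numbers match those after doublet removal, it is not clear whether doublets were already removed before deposit.

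Libraries were integrated and clustered in Seurat 5.3.0 (2000 variable genes without Cxcl9, Cxcl10 and Cxcr3, 40 dimensions, resolution 0.8). A cluster was named where 2 markers of a list stood among its 10 leading genes and 3 were enriched, or else where 80% of the list was enriched, and stayed unnamed where another list had more markers among those leading genes. The limits of 2 and 80% were set after the clusters were seen. Of the 168 genes on 17 marker lists, 4 were not found in the files. The members and all lists were chosen with earlier results of these data known. The rule for named genes took the 3 members in each class with at least 20 cells per library, the 8 genes most like each, and the list genes at 2-fold or more in the 4 classes with most member UMIs, plus upstream genes such as Ifng and Irf1. 1 gene that the rule names is not reported here. T cell-like cells, the genes set against ligand-rich cells and the genes looked up in Cxcr3-positive cells were added after the files were seen. Ratios and intervals were computed with scipy 1.17.1. They were tried on simulated independent Poisson counts, the model that the intervals assume. That trial cannot check them where few cells hold the UMIs. Thinning to 2000 UMIs used 1 random draw and left out shallower cells. Alternatives covered scaling, doublets, cell filters, integration, resolution, depth and the richest cells.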

Additional observations from a re-analysis of the deposited data

Results flagged for a closer look

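Some classes lay on the other side of 1 from the rest. The Cxcl9 ratio of dKO to Ctrl lay above 1 with its interval in 7 classes, but was 0.141 (0.00337 to 0.90) in cycling MO/MP-like cells (9 UMIs in Ctrl against 0 without the richest cell of each library, with an interval of the ratio from 0 to 1.21), and tenocyte-like cells were at least 2.74-fold lower in dKO against a floor of 3 UMIs (exact upper limit of the ratio 0.52). The Cxcl10 ratio lay above 1 with its interval in 6 classes, but was 0.264 in B cell-like cells, 0.103 in tenocyte-like cells and 0.842 in cycling FAP-like cells. With 1 library per group, these differences between classes were not tested, and 15 of the 16 Cxcl10 UMIs of Ctrl B cell-like cells lay in 1 cell. Without the richest cell of each library the Cxcl10 ratio was 2.81 (0.146 to 166, from 1 and 2 UMIs) in B cell-like cells, 0.199 (0.0222 to 0.847) in tenocyte-like cells and 1.21 (1.01 to 1.46) in cycling FAP-like cells. In cycling MO/MP-like cells, 1 of the 6 above 1, it was 0.928 (0.583 to 1.44).

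Cells left out of the comparisons also held UMIs of the 3 genes. The cells removed as doublets held 152 Cxcl9 UMIs in Ctrl and 321 in dKO, and 570 and 1192 Cxcl10 UMIs. They held 5 Cxcr3 UMIs in dKO. Barcodes with fewer than 500 genes held 7 Cxcl9 UMIs in dKO, and 46 Cxcl10 UMIs in Ctrl and 21 in dKO.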

How the results depend on the processing

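The 8 ratios recomputed were those of Cxcl9 and Cxcl10 in MO/MP-like, dendritic cell-like and FAP-like cells, of Cxcl10 in EC-like cells and of Cxcr3 in T cell-like cells. Over 79 alternatives, 78 log2 ratios stayed above 0. The exception was Cxcl10 in EC-like cells, at 0.43, which was -0.31 without the 10 cells with most UMIs of the gene in each library. The Cxcl9 ratio in EC-like cells, not among the 8, also turned at this step, from 2.89 to 0.852. Leaving out these 10 cells was chosen after seeing the data and moved Cxcl9 in MO/MP-like cells from 3.46 to 2.03, Cxcl9 in FAP-like cells from 1.32 to 1.09 and Cxcl10 in FAP-like cells from 0.49 to 0.68. It left no UMI for both ligands in dendritic cell-like cells in either library, and none for Cxcr3 in T cell-like cells of Ctrl, so it gave no value there. Thinning to 2000 UMIs gave 3.02 for Cxcl9 and 0.82 for Cxcl10 in MO/MP-like cells, 0.96 and 0.57 in FAP-like cells, 0.68 for Cxcl10 in EC-like cells and 4.34 for Cxcl10 in dendritic cell-like cells (3.0 with all UMIs). The mean of each cell's own CPM gave 2.76 for Cxcl9 in MO/MP-like cells, and 1.13 and 0.60 for Cxcl9 and Cxcl10 in FAP-like cells. Cxcl10 in MO/MP-like cells, at 1.05, was 1.27 with cells of at least 200 genes, 1.25 with the members among the variable genes and 0.89 with the unnamed pair of clusters added, the last also chosen after seeing the data. Cxcl10 in EC-like cells was 0.20 under each of the first 2 of these settings. Cxcl10 in FAP-like cells was 0.55 when scaled to the median ratio and 0.56 without the richest cell. Cxcl9 in dendritic cell-like cells (2.49 to 3.10) and Cxcr3 in T cell-like cells (0.22 to 0.80) stayed within their counting intervals. The cause of these shifts was not tested.

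No paired analysis was possible because each group is 1 library. The spread between mice was not measured, since each library pools 3. Most classes held 1 Cxcr3 UMI or none in each library, and the part of depth in this was not tested.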

Other observations

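Among classes with fewer than 20 cells in a library, lymphatic EC-like cells (18 Ctrl and 13 dKO) held 69 Cxcl10 UMIs in Ctrl, 68 of them in 1 cell, and none in dKO. The same class held 10 Cxcl9 UMIs in Ctrl, all in 1 cell.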
